A study of Mus musculus with 15 samples.

Results

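The microRNAs (miRNAs) described here are 7 mature forms that are made mainly in the nervous system: mmu-miR-7a-5p, mmu-miR-9-5p, mmu-miR-9-3p, mmu-miR-124-3p, mmu-miR-128-3p, mmu-miR-129-5p and mmu-miR-219a-2-3p, written below without the species prefix mmu. They were found by name among the 1205 entries of a table of miRNA reads from mouse plasma, and all 7 had an entry. The plasma came from male wild-type C57BL/6J mice, taken 24 h after cecal ligation and puncture (CLP; 9 libraries) or after a sham operation (6 libraries). CLP releases gut bacteria into the abdomen and is used as a model of sepsis with many bacterial species. The plasma had been spun to remove cells and platelets, and RNA was read by small RNA sequencing, in which adapters are ligated to both RNA ends. Nothing in the labels states that the libraries came from different animals, and the p-values therefore cover the variation among these libraries, which may be technical.

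A miRNA is cut from a hairpin precursor and, bound to an Argonaute protein, represses messenger RNAs that pair with its seed, bases 2 to 8 from the 5′ end. Each hairpin has a 5′ arm (-5p) and a 3′ arm (-3p), and often only the form from one arm is kept in quantity. miR-124 is the classic miRNA of neurons and represses non-neuronal genes there, while miR-9 acts in neural progenitors and is known for activity of both arms. miR-128 and miR-129 are known for limiting neuronal excitability, miR-219 for driving the maturation of oligodendrocytes, and miR-7 for its pairing with the circular RNA Cdr1as in neurons and for its presence in pancreatic islets. Several are not confined to the nervous system.

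RefSeq (GRCm38.p6) holds the mature sequence of 5 of the 7, which are printed with the seed in capitals to show that no seed is shared among them. miR-7b-5p and miR-129b-5p are added because they resemble members and are described beside them.
miR-7a-5p: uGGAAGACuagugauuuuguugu
miR-7b-5p: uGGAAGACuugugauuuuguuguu
miR-9-5p: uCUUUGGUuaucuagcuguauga
miR-9-3p: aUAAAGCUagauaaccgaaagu
miR-128-3p: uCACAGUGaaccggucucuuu
miR-129-5p: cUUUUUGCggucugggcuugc
miR-129b-5p: gCUUUUUGggguaagggcuucc

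The 5 members have 5 distinct seeds. Of all other miRNAs in the table with a RefSeq sequence, only miR-7b-5p shared a member's seed, that of miR-7a-5p. These 2 differ over the length of miR-7a-5p by A10U (positions from the 5′ end, the base of miR-7a-5p first), and miR-7b-5p is 1 base longer. miR-129b-5p, shifted by 1 base, is identical to miR-129-5p at 17 of 21 positions. miR-124-3p and miR-219a-2-3p are named only.

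Most members have more than 1 gene (mm10, GENCODE M21). miR-7a comes from Mir7-1, in an intron of the RNA-binding protein gene Hnrnpk (chr13:58392779-58392886, minus strand), and from Mir7-2, which overlaps no other gene (chr7:78888277-78888373, plus strand). miR-128 comes from an intron of R3hdm1 (Mir128-1, chr1:128202361-128202430, plus strand) and from an intron of Arpp21, a gene of neurons (Mir128-2, chr9:112118636-112118711, minus strand). miR-129 comes from an exon of the noncoding gene Gm3294 (Mir129-1, chr6:29022619-29022691, plus strand) and from an intron of Mir670hg (Mir129-2, chr2:94241364-94241453, minus strand). miR-9 and miR-124 each have 3 genes, all within noncoding host transcripts. The precursor of miR-219a-2-3p, Mir219a-2, lies at chr2:29845631-29845727 on the minus strand. Hairpins annotated on the opposite strand overlap Mir9-1, Mir129-2 and Mir219a-2.

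Library totals ran from 5274676 to 13576482 counts, and levels are given as CPM, counts scaled to a common library total after TMM, a method that sets the bulk of miRNAs equal between libraries. The edgeR quasi-likelihood F test was run on the 426 entries that passed the abundance filter, with p adjusted over all of them, and 201 (47.2%) differed between CLP and sham at an adjusted p under 0.05. Of the 426, 108 (25.4%) were higher in CLP and 93 (21.8%) lower. With scaling by library size alone the counts were 90 higher and 126 lower, and the median log2 fold change shifted by -0.23, so directions are relative to the scaling. In plasma, a change in the number of cells that release a miRNA and a change in the amount released per cell cannot be told apart.

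Of the 7 members 6 passed the abundance filter. Among these, 3 of 6 were higher in CLP (miR-129-5p, miR-7a-5p and miR-128-3p), where 25.4% of all tested miRNAs were, and miR-9-3p and miR-124-3p did not pass the test. The sixth, miR-219a-2-3p, was lower. It reached the filter's 1.37 CPM in no CLP library and in all 6 sham libraries, so it was tested only because it is high in sham, and its call is not read against the share of all miRNAs. The other 5 passed the filter in either group alone. The members were chosen with earlier results of these data known, so the count of 3 beside the 25.4% is a description. miR-9-5p was too scarce to be tested. No CLP library fell within the sham range for miR-129-5p, as for 84 of the 426 tested miRNAs (19.7%) in either direction, nor for miR-219a-2-3p. As a description, the median log2 fold change was 0.80 over the 6 tested members and 0.11 over all tested miRNAs. Summed over the 7 members, the level was 414 to 704 CPM (median 508) in CLP libraries, against 186 to 313 CPM (median 200) in sham libraries, with no overlap. Taken singly, 36 of the 426 tested miRNAs (8.45%) had all 9 CLP libraries above every sham library. No such share was computed for sums of miRNAs, so the separation of the sum is a description. miR-128-3p had the largest median share of the members' summed CPM, 66.1% in CLP and 62.6% in sham. Its share ran from 42.3% to 79.4% in CLP and from 54.4% to 67.5% in sham. miR-7a-5p came next with a median of 27.9% in CLP (12.5% to 53.0%) and 20.8% in sham (18.3% to 32.1%). In CLP 1 and CLP 9 miR-7a-5p was above miR-128-3p. By mean CPM, miR-128-3p ranked 85 and miR-219a-2-3p 405 among the 426 tested.

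**Figure D1:**
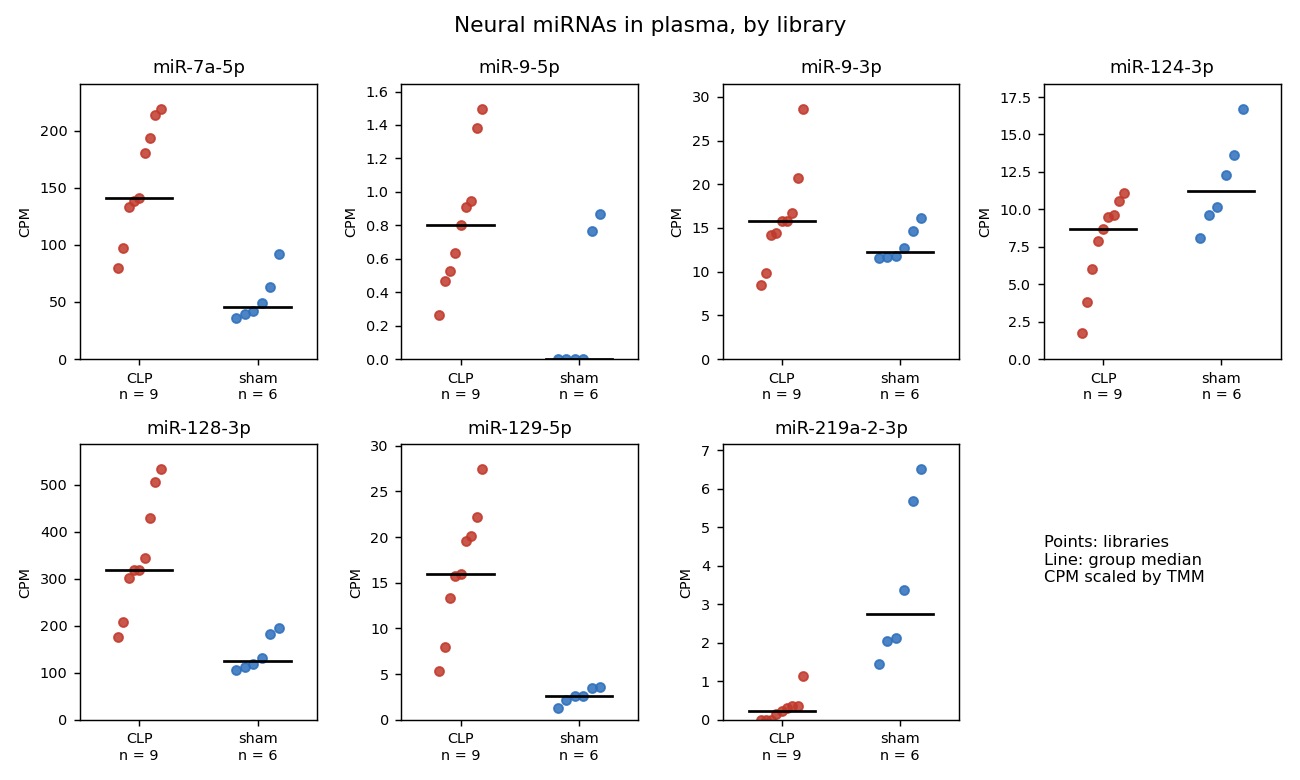
CPM of each neural miRNA (vertical axes, from 0) in the 9 CLP and 6 sham libraries; points are libraries and the black line is the group median. All CLP points lie above all sham points for miR-129-5p and below them for miR-219a-2-3p, and the groups overlap for the other 5.

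miR-129-5p, a miRNA of neurons, had the largest rise among the members. It was read at 5.37 to 27.4 CPM (median 16.0) in CLP libraries, against 1.33 to 3.57 CPM (median 2.58) in sham libraries. All 9 CLP libraries lay above every sham library, a separation in this direction that 36 of the 426 tested miRNAs (8.45%) showed. The means were 16.4 ± 6.91 CPM (SD, n = 9) in CLP and 2.62 ± 0.83 CPM (n = 6) in sham. The log2 fold change was 2.64 ± 0.36 (SE; edgeR adjusted p = 8.47e-06), the 28th largest in size among the 426. In reads this was 46 to 231 counts per CLP library and 10 to 37 per sham library, so the sham levels carry counting error: the 10 counts of sham 5 give 1.33 CPM with an exact (Clopper-Pearson) 95% interval of 0.64 to 2.45, which covers counting error only.

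miR-7a-5p was read at 79.5 to 219 CPM (median 141) in CLP libraries, against 36.0 to 91.8 CPM (median 45.6) in sham libraries. Of the 9 CLP libraries 8 exceeded every sham library; CLP 3 was the exception, at 79.5 CPM, below sham 2 at 91.8. The means were 155 ± 49.7 CPM (SD, n = 9) in CLP and 53.6 ± 21.1 CPM (n = 6) in sham, a log2 fold change of 1.53 ± 0.27 (SE; edgeR adjusted p = 0.000154). Depth does not limit this member, with 215 or more counts in every library.

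miR-128-3p, the most abundant member, was read at 175 to 533 CPM (median 320) in CLP libraries, against 107 to 195 CPM (median 125) in sham libraries. Again 8 of 9 CLP libraries exceeded every sham library, and the exception was CLP 1 at 175 CPM, below sham 1 and sham 2. The means were 348 ± 122 CPM (SD, n = 9) in CLP and 141 ± 37.9 CPM (n = 6) in sham, a log2 fold change of 1.30 ± 0.25 (SE; edgeR adjusted p = 0.000381). The CLP libraries highest in miR-128-3p were CLP 2 and CLP 3, whereas those highest in miR-7a-5p were CLP 1 and CLP 9.

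miR-219a-2-3p, from the 3′ arm of a hairpin whose 5′ product acts in oligodendrocytes, was scarce and was the member that fell. CLP libraries held 0 to 13 counts (median 2), which is 0 to 1.13 CPM, against 15 to 47 counts (median 19), which is 1.45 to 6.50 CPM, in sham libraries. Every sham library exceeded all 9 CLP libraries. This was so for 48 of the 426 tested miRNAs (11.3%), a share from which nothing is read for a miRNA tested only through sham. The means were 0.28 ± 0.35 CPM (SD, n = 9) in CLP and 3.53 ± 2.10 CPM (n = 6) in sham, and the log2 fold change was -3.44 ± 0.62 (SE; edgeR adjusted p = 0.000188). CLP 1, CLP 4 and CLP 9 had no read, which allows up to 0.52, 0.39 and 0.47 CPM (3 counts per library).

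The counting intervals of miR-219a-2-3p overlap where the groups come closest. The 13 counts of CLP 3, its highest CLP library, give an exact 95% interval of 0.60 to 1.94 CPM, and the 15 counts of sham 6, the lowest sham library, one of 0.81 to 2.39 CPM. It dropped out of the tested set in 7 of 15 fits that left out 1 library. With no filter, its log2 fold change on leaving out 1 library lay between -4.08 (without CLP 3) and -3.12 (without sham 1), with edgeR adjusted p up to 0.000159.

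miR-124-3p, the neuronal miRNA, was read at 1.72 to 11.1 CPM (median 8.67) in CLP libraries, against 8.10 to 16.7 CPM (median 11.2) in sham libraries. The groups overlap: 4 of 9 CLP libraries lay below every sham library and the other 5 within the sham range. CLP 1 and CLP 2 were lowest, with 10 and 21 counts. The log2 fold change of -0.61 ± 0.32 (SE) did not pass (edgeR adjusted p = 0.121), but did with scaling by library size alone (-0.84, edgeR adjusted p = 0.0385).

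miR-9-3p was read at 8.45 to 28.6 CPM (median 15.8) in CLP libraries, against 11.6 to 16.2 CPM (median 12.2) in sham libraries. CLP libraries lay on both sides of the narrow sham range, with 3 above it (CLP 3, CLP 7 and CLP 8) and 2 below it (CLP 1 and CLP 5). The log2 fold change was 0.29 ± 0.24 (SE; edgeR adjusted p = 0.337), and with a trend on GC content removed it was -0.28 (edgeR adjusted p = 0.435).

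miR-9-5p, from the other arm of the same hairpins, had 3 to 17 counts in each of the 9 CLP libraries, which is 0.26 to 1.497 CPM. In sham it was read in sham 3 and sham 6 alone, at 5 and 9 counts (0.76 and 0.87 CPM), and was at 0 in the other 4, which allows up to 0.38 to 0.50 CPM in each. The CLP range covers these limits, and the deepest libraries are CLP libraries. With no filter, edgeR gave a log2 fold change of 1.51 ± 0.86 (SE; adjusted p = 0.183).

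**Figure D2:**
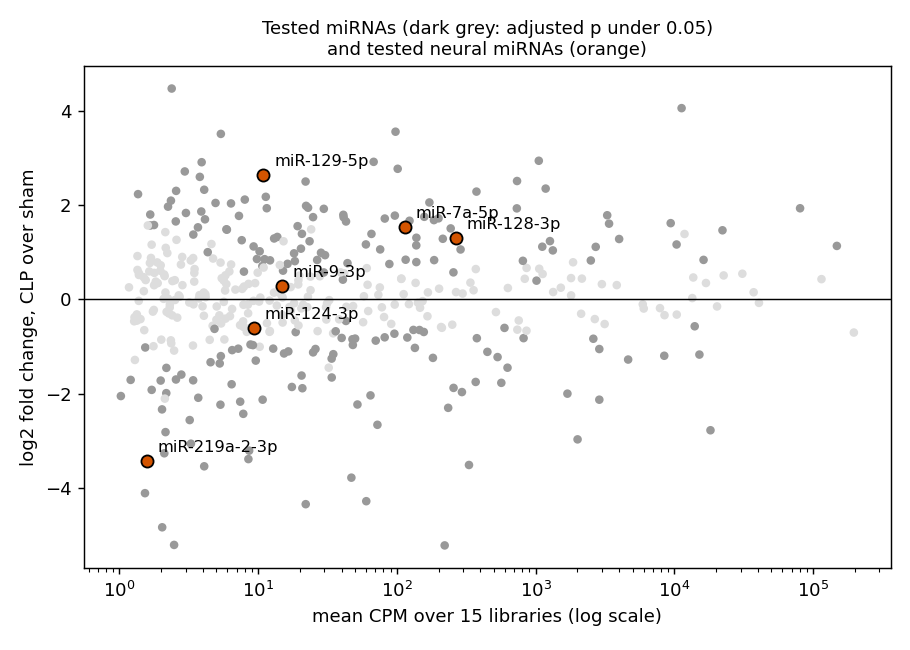
Log2 fold change of CLP over sham (vertical axis) against mean CPM over 15 libraries (horizontal axis, log scale) for the 426 tested miRNAs; dark grey points have an edgeR adjusted p under 0.05 and orange points are the 6 tested neural miRNAs. The 3 that rose lie at 1.30 to 2.64, miR-9-3p and miR-124-3p lie among uncalled miRNAs, and miR-219a-2-3p lies at the scarce end at -3.44.

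GC content differed between the called groups as a whole. The median GC content of the mature sequence was 45.5% for the miRNAs that rose, 54.2% for those that fell and 50.0% for the rest. Among the members that rose, miR-7a-5p has 34.8% GC, miR-128-3p 47.6% and miR-129-5p 57.1%. With the GC trend of each library removed, the log2 fold changes were 1.01 for miR-7a-5p (edgeR adjusted p = 0.000575), 1.05 for miR-128-3p (0.0015) and 2.88 for miR-129-5p (1.92e-06).

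Few other arms and paralogs of these families were abundant enough to test. Of 21 listed names 15 had an entry and 7 were tested, of which 1 rose and none fell at an adjusted p under 0.05, against 47.2% of all tested miRNAs called. The one that rose was miR-129b-5p, from the hairpin annotated opposite Mir129-2. It was read at 1.38 to 6.07 CPM (median 4.90) in CLP libraries, against 0 to 2.01 CPM (median 0.41) in sham libraries, and its log2 fold change was 2.72 ± 0.65 (SE; edgeR adjusted p = 0.00206). It reached the filter's cutoff in 8 of 9 CLP and 2 of 6 sham libraries, so it was tested only through CLP, where it is high, and its call is a description. Of the 9 CLP libraries 8 exceeded every sham library.

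A stretch of 20 bases of miR-129b-5p is the reverse complement of miR-129-2-3p, and another of 20 bases links miR-129b-3p with miR-129-5p in the same way. Whether reads were assigned by strand is not given in the sources used here, so the counts of these antisense pairs are uncertain. miR-129b-3p, the antisense partner of miR-129-5p, had a log2 fold change of 0.38 ± 0.40 (SE; edgeR adjusted p = 0.447), where miR-129-5p had 2.64. The 3′ arms miR-129-1-3p and miR-129-2-3p were too scarce to be tested. They had 0 to 15.5 and 0 to 9.5 counts in CLP libraries, against 0 to 12 and 2 to 11 counts in sham libraries, and 4 libraries each held a fractional value, which comes from dividing reads between entries.

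In the miR-7 family, miR-7b-5p had 3 to 42 counts (median 15) in CLP libraries, against 0 to 6 counts in sham libraries, with 4 of the 6 at 0. It was not tested, and 8 of 9 CLP libraries exceeded every sham library. A single mismatch separates it from miR-7a-5p, and the mismatches allowed are not given in the sources used here. miR-7a-1-3p, the partner arm of miR-7a-5p in Mir7-1, was at 1.18 to 4.37 CPM in CLP libraries, against 0.53 to 2.22 CPM in sham libraries (log2 fold change 0.50 ± 0.40, edgeR adjusted p = 0.317). miR-128-1-5p was at 0.69 to 3.75 CPM in CLP libraries, against 1.25 to 3.51 CPM in sham libraries (0.01 ± 0.39, edgeR adjusted p = 0.973; -0.23 with scaling by library size alone).

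The miR-219 family was represented mainly by miR-219a-1-3p, from the second miR-219a gene, at 7.56 to 16.3 CPM (median 8.87) in CLP libraries, against 9.21 to 18.4 CPM (median 13.8) in sham libraries. Its log2 fold change of -0.50 ± 0.23 (SE) did not pass (edgeR adjusted p = 0.0832). It did pass with scaling by library size alone (-0.70, 0.0258), with DESeq2 size factors (-0.59, 0.0394), and without CLP 4 (0.0177), CLP 6 (0.0355) or sham 4 (0.0484), and it was -0.03 with the GC trend removed (0.915). miR-219a-5p, the 5′ form made by both genes, was at 0.47 ± 0.49 (edgeR adjusted p = 0.446), and miR-219c-5p, antisense to miR-219a-1-3p over 20 bases, at 0.57 ± 0.41 (0.264), which was 1.05 and passed with the GC trend removed (0.0465). The remaining relatives with an entry, miR-7a-2-3p, miR-124-5p, miR-219b-5p, miR-219b-3p and miR-219c-3p, reached at most 11 counts in any library.

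**Figure D3:**
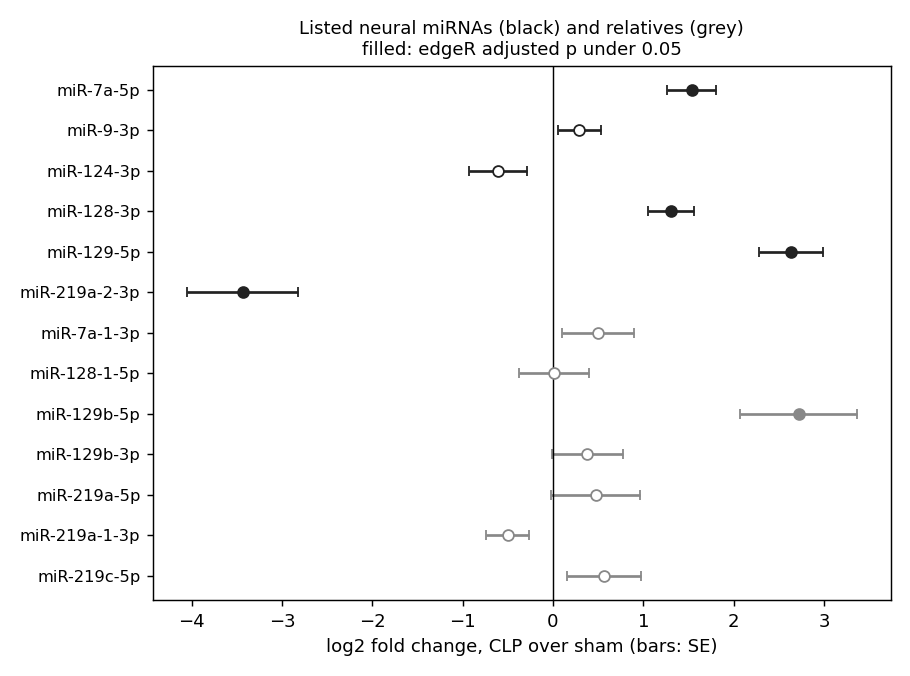
Log2 fold change of CLP over sham (horizontal axis, bars are SE) for the 6 tested neural miRNAs in black and 7 tested relatives in grey; filled points have an edgeR adjusted p under 0.05. miR-129-5p and miR-129b-5p lie together near 2.7, while the partner arms miR-7a-1-3p and miR-128-1-5p lie nearer 0 than miR-7a-5p and miR-128-3p.

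Whether a member moved apart from its partner arm or paralog was tested within each library, as the log2 ratio of their counts with 0.5 added to each, which does not depend on the scaling between libraries. Of 9 listed pairs 7 had a mean of at least 5 counts of both miRNAs in at least 1 group, and exact two-sided permutation p-values over libraries were adjusted over these 7. In 3 of them both miRNAs reached that mean in CLP and in sham, and these 3 passed at an adjusted p under 0.05. In each of these 3 the member comes from 2 genes and its partner arm from 1 of them, and miR-128-2-5p had no entry. A change between the arms of a hairpin and a change in the part of the second gene therefore cannot be told apart.

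The log2 ratio of miR-128-3p over miR-128-1-5p averaged 7.43 ± 0.66 (SD, n = 9) in CLP and 6.06 ± 0.67 (n = 6) in sham, a difference of 1.37 (exact permutation p = 0.0022, adjusted 0.00385); CLP 5 and CLP 9 lay within the sham range and the other 7 above it. For miR-129-5p over miR-129-1-3p it averaged 4.74 ± 1.17 in CLP and 2.22 ± 1.12 in sham, a difference of 2.52 (exact permutation p = 0.0018, adjusted 0.00385), with 4 of 9 above. The miR-128 and miR-129 calls held on leaving out any 1 library, but both partner arms are scarce and these ratios carry counting error, large for miR-129-1-3p. CLP 5 and sham 5 had 0 counts of miR-129-1-3p, so the value added sets their ratios, 6.94 and 4.39, the highest of each group. With 1 count added in place of 0.5 the miR-129 difference was 2.51. miR-128-1-5p had 4 to 43 counts in CLP libraries and 10 to 23 in sham libraries. The highest miR-128 ratio, 8.41 in CLP 8, rests on 6 counts of it. miR-7a-1-3p was also scarce, with 9 to 39 counts in CLP libraries and 4 to 23 in sham libraries. For miR-7a-5p over miR-7a-1-3p the difference was 1.05 (exact permutation p = 0.033, adjusted 0.0385), also with 4 of 9 above. This call held only without CLP 2, without CLP 3, without CLP 7 or without sham 5 among the 15 fits that each left out 1 library, where adjusted p reached 0.0799.

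In the other 4 pairs 1 miRNA reached a mean of 5 counts only in the group where it is higher, so their ratios are given as a description with no test. The log2 ratio of miR-129-5p over miR-129-2-3p averaged 5.17 ± 1.32 (SD, n = 9) in CLP and 1.41 ± 1.19 (n = 6) in sham, where miR-129-2-3p averaged 4.72 counts in CLP and 7.42 in sham. The ratio of miR-219a-2-3p over miR-219a-5p averaged -2.74 ± 1.82 in CLP and 1.61 ± 1.39 in sham. The 5′ form had the higher count in 8 of 9 CLP libraries, with CLP 3 the exception, and the 3′ form had it in 5 of 6 sham libraries. With 3 CLP libraries at 0 counts of miR-219a-2-3p, the value added sets the size of that ratio.

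The ratio of miR-7a-5p over miR-7b-5p averaged 6.77 ± 0.89 (SD, n = 9) in CLP and 8.48 ± 1.97 (n = 6) in sham, and 2 of 9 CLP libraries lay below every sham library. That of miR-9-5p over miR-9-3p averaged -4.25 ± 1.20 in CLP and -6.32 ± 1.89 in sham, and 2 of 9 CLP libraries lay above every sham library. In each of these the scarce miRNA was at 0 in 4 of 6 sham libraries. The differences of -1.71 and 2.07 were -1.08 and 1.49 with 1 count added in place of 0.5. miR-9-3p had more reads than miR-9-5p in all 15 libraries, although ligation preference makes levels of different miRNAs in a library uncertain.

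**Figure D4:**
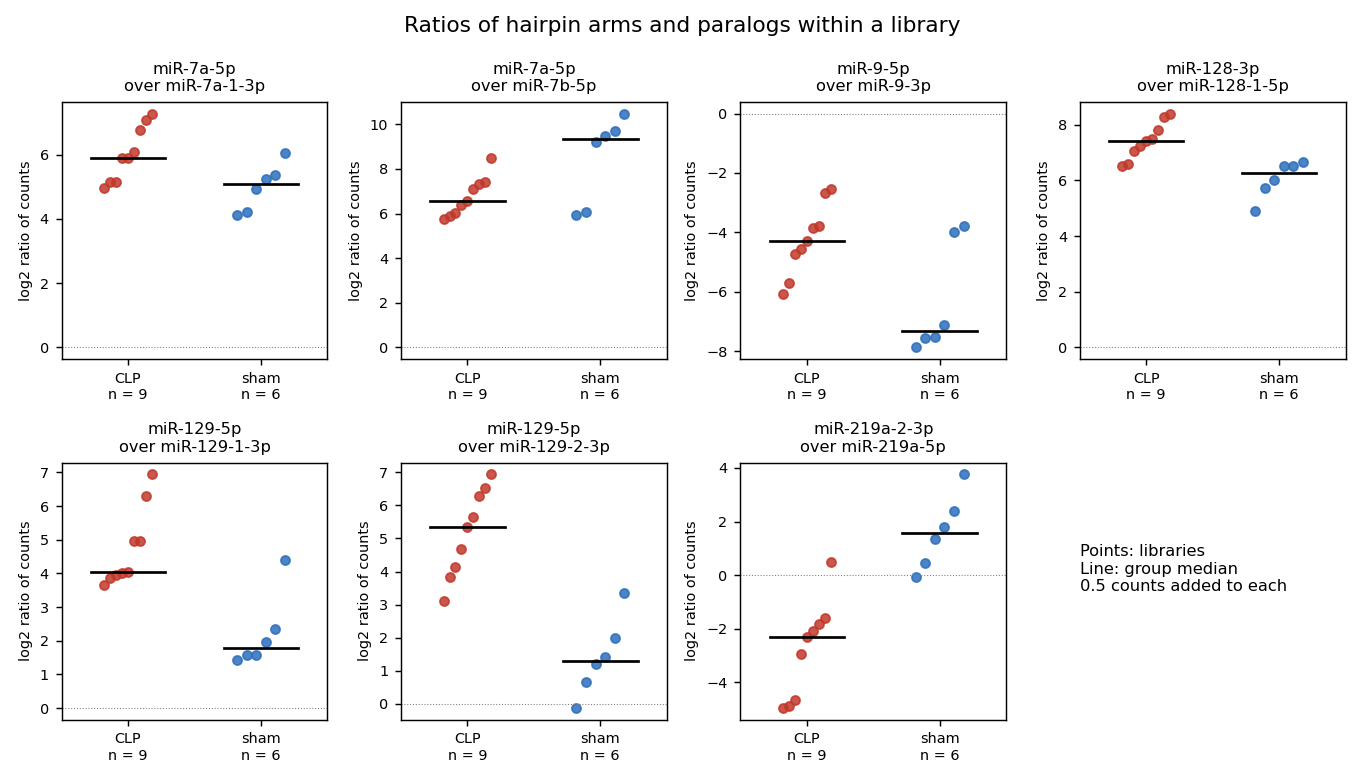
Log2 ratio of the counts of a neural miRNA over its partner arm or paralog (vertical axes) in the 9 CLP and 6 sham libraries; points are libraries and the black line is the group median. CLP sits higher for the miR-128, miR-129, miR-9 and miR-7a arm pairs and lower for miR-219a-2-3p over miR-219a-5p and for miR-7a-5p over miR-7b-5p.

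The CLP libraries did not rank alike for every member. Among 15 pairs of the 6 tested members, Pearson's r of log2 CPM over the 9 CLP libraries was positive in 10, and 2 pairs passed after adjustment over the 15. miR-9-3p and miR-129-5p went together (r = 0.87, exact permutation p = 0.00325, adjusted 0.0317; Spearman's rho = 0.72, exact permutation p = 0.0369, adjusted 0.184). Without CLP 8 and CLP 1, the libraries farthest from the median of miR-9-3p, r was 0.84. On leaving out 1 CLP library r stayed between 0.84 and 0.93, with adjusted p up to 0.119, and the call held only without CLP 2, without CLP 5 or without CLP 9. Over the 6 sham libraries r was 0.55.

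miR-7a-5p and miR-128-3p, the most abundant members, had r = -0.65 over the CLP libraries (exact permutation p = 0.0556, adjusted 0.178; rho = -0.73, exact permutation p = 0.0311, adjusted 0.184). Without CLP 3 and CLP 1, r was -0.36, so the relation rests in part on those libraries. CLP 1 had the highest miR-7a-5p, at 219 CPM, and the lowest miR-128-3p, miR-9-3p and miR-124-3p of the CLP libraries. The other pair to pass was miR-7a-5p with miR-219a-2-3p (r = -0.84, exact permutation p = 0.00422, adjusted 0.0317; rho = -0.82, exact permutation p = 0.0108, adjusted 0.162), but miR-219a-2-3p had 0 to 13 counts there, and r was -0.66 without CLP 3 and CLP 1. On leaving out 1 CLP library r ran from -0.95 to -0.68 with adjusted p up to 0.384 (without CLP 3), and the call held only without CLP 2, without CLP 5 or without CLP 8.

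**Figure D5:**
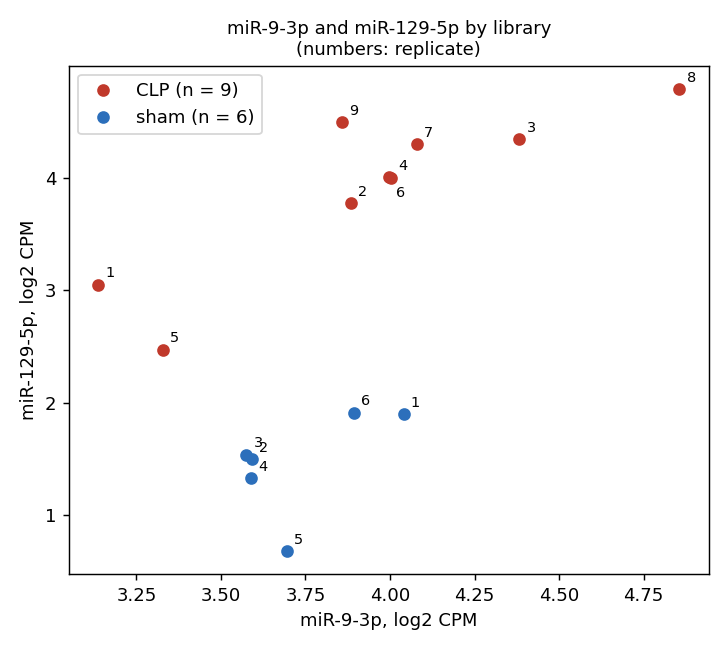
Log2 CPM of miR-129-5p (vertical axis) against miR-9-3p (horizontal axis) in 9 CLP and 6 sham libraries, each point a library marked with its replicate number. Within CLP the points rise from CLP 1 and CLP 5 to CLP 8, and at a like level of miR-9-3p the sham points lie below the CLP points.

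Among tested miRNAs averaging 10 CPM or more, the patterns most like each member over the 9 CLP libraries were picked by the highest Pearson's r, and are given as a description without a test. The points share library and depth. miR-7a-5p was most like miR-20a-5p and miR-26b-5p (r = 0.94 each), and was close to them over the 6 sham libraries too (0.88 and 0.79). miR-124-3p was most like miR-125b-5p (0.97) and miR-125a-5p (0.96). miR-128-3p was most like miR-485-5p (0.93) and miR-666-5p (0.89), with r of -0.31 and -0.37 over the sham libraries. For miR-9-3p these were miR-10b-3p (0.90) and miR-335-5p (0.89), for miR-129-5p they were miR-10b-5p (0.91) and miR-9-3p (0.87), and for the sparse miR-219a-2-3p let-7d-3p (0.85) and miR-485-5p (0.80).

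Of 18 other miRNAs enriched in the nervous system, 17 had an entry and 8 were tested, of which 2 rose and 1 fell, against 47.2% of all tested miRNAs called, with a median log2 fold change of 0.26. miR-134-5p, a brain miRNA from the imprinted Dlk1-Dio3 region, was at 17.4 to 39.7 CPM in CLP libraries, against 3.97 to 12.5 CPM in sham libraries. The groups did not overlap, with CLP above sham, as for 36 of the 426 tested miRNAs (8.45%). The log2 fold change of miR-134-5p was 1.39 ± 0.27 (SE; edgeR adjusted p = 0.000363). miR-338-3p, made in oligodendrocytes, was at 1.22 to 7.80 CPM in CLP libraries, against 1.03 to 3.34 CPM in sham libraries (1.38 ± 0.44, edgeR adjusted p = 0.0146; 0.95 and 0.0714 with the GC trend removed, 1.06 and 0.103 over replicates 1 to 6). It was tested only through CLP, with 8 of 9 CLP and 4 of 6 sham libraries at the filter's cutoff. Its call, included in the count of 2 that rose, is therefore a description. miR-485-5p, also from the Dlk1-Dio3 region, was at 3.62 to 19.9 CPM in CLP libraries, against 12.6 to 33.8 CPM in sham libraries (-1.10 ± 0.34, edgeR adjusted p = 0.0116). The neuronal miR-137-3p and miR-153-3p, not tested, reached at most 0.53 and 0.34 CPM in any library. The other untested entries had at most 18 counts in any library and did not behave alike. CLP libraries above every sham library were 6 of 9 for miR-873a-5p and 5 each for miR-384-5p and miR-344-3p. They were 2 for miR-135a-5p, 1 for miR-383-5p, and 0 for miR-488-3p and miR-218-5p.

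Markers of other sources moved beside the members, and their counts stand against 25.4% of all tested miRNAs higher and 21.8% lower. Of 5 striated muscle miRNAs 4 rose and none fell, with summed levels of 4985 to 40598 CPM in CLP and 409 to 6692 CPM in sham. Of those that rose, miR-208b-3p and miR-499-5p reached the filter's cutoff in 6 and 9 CLP libraries but in 0 and 3 sham libraries. They were tested only through CLP, where they are high, so the muscle count is a description. Of 4 islet and pancreas miRNAs 1 rose, with sums of 274 to 2320 CPM in CLP and 448 to 873 CPM in sham. The one that rose was miR-217-5p, at 3.56 ± 0.83 (SE, edgeR adjusted p = 0.00199). miR-375-3p of the islets was at 0.67 ± 0.36 (edgeR adjusted p = 0.133). miR-216a-5p was at -0.35 (0.702) and miR-216b-5p at -0.42 (0.739). Of 4 red cell miRNAs 1 fell, with sums of 81453 to 377463 CPM in CLP and 157266 to 454442 CPM in sham. Of 4 myeloid miRNAs 1 rose (1824 to 4182 CPM in CLP, 1479 to 2143 CPM in sham), and of 3 liver miRNAs none passed (14192 to 146602 CPM in CLP, 22482 to 46058 CPM in sham). miR-208b-3p was at 0 in 5 of 6 sham libraries, and no other marker on these lists was at 0 in most of a group. The part of these sources in the members' changes was not tested.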

How the data were processed

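The authors deposited 1 table of expected counts per mature miRNA for 15 libraries, not scaled for depth; its name gives exceRpt, a small RNA pipeline, and the submitters' processing notes give mm10. The aligner, mismatches, strand setting and annotation release are not given in the sources used here. Of the entries 4.56% were not whole numbers, and counts were rounded before testing. edgeR 4.0.16 in R 4.3.3 (filterByExpr, TMM, robust quasi-likelihood F test, no covariate, two-sided) was fitted to the whole table, with Benjamini-Hochberg adjustment and a threshold of 0.05. SE is the size of the log2 fold change over the square root of F. Correlations used log2 CPM with a prior count of 2, and exact intervals are Clopper-Pearson at 95%. The fit was also run on simulated data with the same spread set for all miRNAs, which these data need not have, and no result rests on it. Libraries of a group differed from each other beyond sampling noise (lowest chi-square per degree of freedom 373 in CLP and 235 in sham). Named were the 7 members, their listed relatives, miRNAs sharing a member's seed, called members of the other nervous system list, and the 2 most alike per tested member. Untested members of the other nervous system list, the islet and pancreas miRNAs, miR-208b-3p and miR-499-5p were added after their values were seen. Members and lists were chosen with earlier results of these data known. Alternatives were DESeq2 1.42.0, limma 3.58.1 (voom), other scalings and filters, removal of a loess trend on GC content (RefSeq, 373 of 426 tested), and leaving out libraries.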

Additional observations from a re-analysis of the deposited data

Results flagged for a closer look

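In 28 sets of values (7 miRNAs and 7 ratios in each group), 2 single libraries stood apart from the rest of their group by more than the 95% limit for the gap over the range, and chance gives such a gap in about 1 of 20 sets. miR-219a-2-3p was at 1.13 CPM in CLP 3, apart from the other 8 CLP libraries. The log2 ratio of miR-129-5p over miR-129-1-3p was 4.39 in sham 5, which had no read of miR-129-1-3p.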

How the results depend on the processing

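The rises of miR-7a-5p, miR-128-3p and miR-129-5p kept their direction and their call in all 25 alternative fits, with log2 fold changes of 1.01 to 1.74, 1.05 to 1.41 and 2.20 to 2.88. The number of members called higher was 3 in every fit in which it was counted. The number called lower, 1 as reported, was 2 with scaling by library size alone, where miR-124-3p passed (-0.84), and 0 with at least 10 CPM in at least 6 libraries and over replicates 1 to 6 with or without the block. On leaving out 1 library it was 0 or 1. Where it was 0, miR-219a-2-3p had fallen below the filter. Without a filter it kept its call over replicates 1 to 6, at -3.29 with the replicate block and -3.11 without it, settings chosen after seeing the data, as was leaving out libraries without a filter or in correlations. Same-numbered CLP and sham libraries did not deviate together (r from -0.16 to -0.03 over 6 pairs). No pairing was seen, but 6 pairs are too few to exclude a weak one. Over these 12 libraries the block gave 71 higher and 81 lower miRNAs of 402, against 87 and 92 without it, and miR-124-3p at -1.03 (edgeR adjusted p = 0.0714). With the block miR-338-3p (0.89, 0.194) and miR-485-5p (-1.06, 0.0737) did not pass. Over the same libraries miR-338-3p did not pass without the block either. No filter gave 307 calls of 1182, against 201 of 426, as more miRNAs were tested.

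Small changes turned over. With the GC trend removed, miR-9-3p was at -0.28 and miR-149-5p at 0.25; miR-124-3p and miR-219a-2-3p had no GC value (4 of 6 tested members had one), so no count is given there. miR-128-1-5p was at -0.0745 with DESeq2 size factors, -0.23 with library size, -0.0625 with DESeq2, and -0.20 to 0.18 on leaving out 1 library. miR-132-3p was at -0.013 with library size, -0.11 with the block and -0.0431 over replicates 1 to 6 without it. miR-149-5p was at 0.0769 without CLP 1 and CLP 5, 0.010 over replicates 1 to 6, and -0.28 to 0.014 on leaving out 1 library.

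For the within-library ratios, adding 1 count gave -1.08 for miR-7a-5p over miR-7b-5p and 1.49 for miR-9-5p over miR-9-3p. Leaving out CLP 1 and CLP 5 gave 0.89 for miR-7a-5p over miR-7a-1-3p and 1.60 for the miR-9 arms. On leaving out 1 library these 3 differences ran from -2.21 to -1.31 (miR-7a-5p over miR-7b-5p), 1.76 to 2.57 (miR-9 arms) and 0.87 to 1.26 (miR-7a arms). Depth limits miR-9-5p, miR-219a-2-3p, miR-7b-5p, miR-7a-1-3p, miR-128-1-5p and the 3′ arms of miR-129, which had under 50 counts in every library. The cause of the changes between settings was not tested, beyond the filter named.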
